A study of Mus musculus with 12 samples.

Results

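Btnl1, Btnl2, Btnl4, Btnl6, Btnl9 and Cd274 were described here as one group of surface molecules related to ligands of T lymphocytes. They were chosen by name, through the Ensembl identifiers of the count table, and all 6 were found among 54838 genes and were kept among the 15938 genes with enough reads to be tested. The 12 libraries came from the washed ileum of C57BL/6J mice, 3 mice in each of 4 groups. For 7 days mice drank normal water or water with 25 mM ZnSO4, and 2 h before sampling they received either phosphate-buffered saline (PBS) or 200 µg dexamethasone (Dex), a synthetic glucocorticoid, in PBS. The groups are called water + PBS, water + Dex, ZnSO4 + PBS and ZnSO4 + Dex. The labels state neither the age nor the sex of the mice.

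Butyrophilin-like (Btnl) proteins are relatives of the B7 family of T cell ligands. In the mouse small intestine, Btnl1 pairs with Btnl6 or Btnl4 on the surface of enterocytes, and the Btnl1 and Btnl6 pair maintains the gamma delta T lymphocytes that live within the epithelium. Btnl2 inhibits T cell activation in culture. Cd274 encodes PD-L1, the ligand of the inhibitory receptor PD-1, and is a textbook target of interferon gamma signalling through IRF1.

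Between 10760132 and 11827487 reads per library were assigned to genes. Values below are normalised counts, that is reads divided by the library's effective size and multiplied by the mean effective size of 11377723 reads, so that each value reads as if every library had the same depth. In the ZnSO4 + Dex group, replicate 2 stood apart. Its 12 enterocyte markers summed to 12454 counts scaled to library size (CPM), against 24150 and 28969 CPM in the other two libraries of that group and 20499 to 28987 CPM in the remaining groups. All 12 markers were detected in every group. Results that rest on this library are given with and without it. In RNA from whole tissue, fewer cells of a type and less RNA per cell cannot be told apart.

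Per length, Btnl6 was the most abundant of the 6 in every group. In water + PBS mice it reached 2364 ± 137 normalised counts per kilobase of exon (SD, n = 3), followed by Btnl1 with 643 ± 40.6. Btnl4 with 409 ± 61.3 and Btnl2 with 323 ± 34.1 came next, and the lowest library of the former, at 349.6, lay just under the highest of the latter, at 351.5. Cd274 had 74.9 ± 33.1 and Btnl9 0.64 ± 0.41. The order of the means was the same in ZnSO4 + PBS and ZnSO4 + Dex, although in the latter the libraries of Btnl1 (509 ± 209) and Btnl4 (500 ± 32.2) overlapped. In water + Dex the mean of Btnl4 (686 ± 55.3) was above that of Btnl1 (587 ± 61.5), also with overlapping libraries. Full exon lengths were used, and counts of Btnl4 and Btnl6 can lack reads from stretches shared with other genes, as described below. Their rank against Btnl1 and Btnl2 is a description only.

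**Figure D1:**
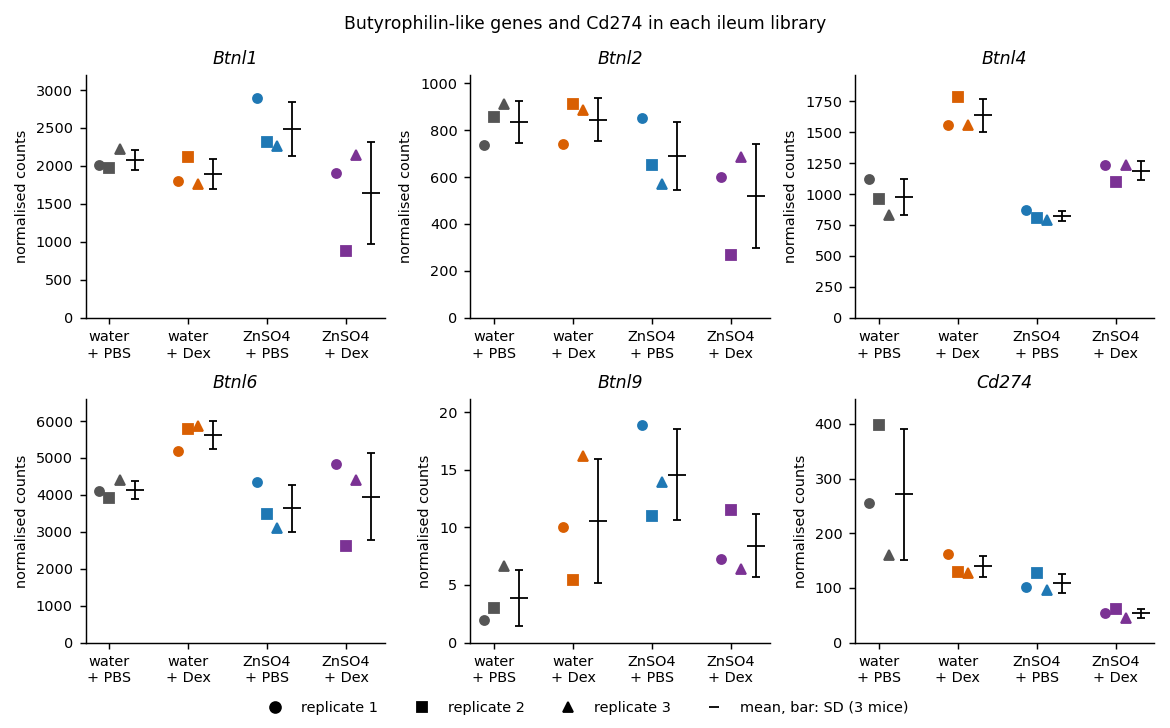
Normalised counts (y axis, starting at 0) of each of the 6 genes in the 12 libraries, by group. Symbols mark the replicate number, the black bar the mean and SD of 3 mice. Btnl4 separates the Dex groups from the PBS groups within each drink, Cd274 is lowest in ZnSO4 + Dex, and replicate 2 of ZnSO4 + Dex is the lowest library for Btnl1, Btnl2 and Btnl6.

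Btnl1, Btnl2, Btnl4 and Btnl6 lie together on chromosome 17 (GRCm38). Btnl2 (34354822 to 34369495) and Btnl1 (34377132 to 34386028) are on the plus strand, and Btnl4 (34466562 to 34477318) and Btnl6 (34507804 to 34517352) on the minus strand, with the pseudogenes Btnl5-ps and Btnl7-ps beside them. Btnl9 is on chromosome 11 (49165585 to 49187159, minus strand) and Cd274 on chromosome 19 (29367455 to 29388095, plus strand). The sequences upstream of the start sites are shown because the counts of the plus-strand neighbours fell after Dex relative to those of the minus-strand neighbours, and because Cd274 is a known target of interferon signalling. Each is the stretch of 250 bases before the RefSeq transcript start on GRCm38.p6, read on the strand of the gene. None of these bases lies in a GENCODE exon of the same gene, and exons of other genes were not checked. The Btnl4 stretch lies within the span given above for Btnl4, downstream of the GENCODE start of that gene. Capitals mark a match to the letters of an interferon regulatory factor (IRF) core, AANNGAAA, or of an HNF4 core, CAAAGTCC, on either strand.
Btnl4, chr17:34475938-34476187, minus strand: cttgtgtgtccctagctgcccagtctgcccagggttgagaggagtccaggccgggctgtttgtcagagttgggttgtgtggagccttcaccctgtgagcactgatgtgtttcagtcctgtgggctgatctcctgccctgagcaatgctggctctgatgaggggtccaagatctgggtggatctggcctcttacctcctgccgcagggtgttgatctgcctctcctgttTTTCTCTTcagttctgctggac
Btnl6, chr17:34517353-34517602, minus strand: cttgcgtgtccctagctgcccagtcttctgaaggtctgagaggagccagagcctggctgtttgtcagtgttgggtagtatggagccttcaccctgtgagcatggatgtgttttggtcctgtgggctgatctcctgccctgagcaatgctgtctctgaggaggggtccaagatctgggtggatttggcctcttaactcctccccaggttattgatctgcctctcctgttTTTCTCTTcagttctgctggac
Btnl1, chr17:34376882-34377131, plus strand: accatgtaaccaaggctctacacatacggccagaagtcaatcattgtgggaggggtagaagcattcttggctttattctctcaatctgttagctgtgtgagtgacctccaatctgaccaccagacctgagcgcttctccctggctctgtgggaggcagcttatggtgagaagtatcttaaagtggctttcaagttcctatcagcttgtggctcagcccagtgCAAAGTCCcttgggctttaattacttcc
Btnl2, chr17:34354572-34354821, plus strand: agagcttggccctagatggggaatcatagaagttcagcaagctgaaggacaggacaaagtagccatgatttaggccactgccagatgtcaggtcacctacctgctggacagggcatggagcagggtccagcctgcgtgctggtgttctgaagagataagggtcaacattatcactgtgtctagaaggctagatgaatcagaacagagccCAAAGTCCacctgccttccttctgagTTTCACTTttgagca
Cd274, chr19:29367188-29367437, plus strand: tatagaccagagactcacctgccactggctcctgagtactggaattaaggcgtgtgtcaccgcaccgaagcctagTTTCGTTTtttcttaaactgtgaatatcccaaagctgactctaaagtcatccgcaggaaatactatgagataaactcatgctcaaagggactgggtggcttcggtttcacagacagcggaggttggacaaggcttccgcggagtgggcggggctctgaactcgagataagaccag

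The Btnl4 and Btnl6 stretches were identical in 228 of 252 aligned columns (90.5%), whereas Btnl1 and Btnl2 were identical in 52.8% and the remaining pairs of these 5 in 48.5% to 52.9%. Both Btnl4 and Btnl6 held the IRF letters from 22 to 15 bases before the start, as TTTCTCTT on the strand shown. The HNF4 letters were found in Btnl1, from 28 to 21 bases before the start, and in Btnl2, from 41 to 34 bases before it. Btnl2 also held the IRF letters (15 to 8), and Cd274 held them from 175 to 168 bases before its start. Of the stretches of the same length before 32536 RefSeq starts, 21.3% held the IRF letters and 1.2% the HNF4 letters. The letters of a full glucocorticoid response element, AGAACA, any 3 bases and TGTTCT, were in 0.00922% of these and in none of the 6 genes' stretches. Those of a gamma-activated site (GAS), TTC, any 3 bases and GAA, were in 7.04% and also in none of the 6. The motifs were chosen after the responses were known, and a match of letters is a description only.

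Cd274, the gene of the group with a call in all 5 comparisons of groups, was examined first for ZnSO4 alone. Mice on water + PBS had 255, 398 and 161 normalised counts, and mice on ZnSO4 + PBS had 101, 128 and 95.4. The 3 ZnSO4 libraries lay below the 3 water libraries. The mean of 271 ± 120 normalised counts fell to 108 ± 17.5 (SD, n = 3), a log2 fold change (LFC) of -1.32 (SE 0.27, adjusted p = 0.0208, edgeR's quasi-likelihood test adjusted over 15938 genes). The water group had the widest spread of the 4, and the call was lost without water + PBS replicate 1, ZnSO4 + PBS replicate 1 or ZnSO4 + PBS replicate 3 (LFC -1.35, -1.28 and -1.24, adjusted p = 0.0593, 0.0793 and 0.0893 by edgeR). Over the omissions of each library in turn, the LFC ranged from -1.59 to -0.94.

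Under Dex the same contrast of drinks gave a similar value. Cd274 had 162, 130 and 128 normalised counts in water + Dex and 55.0, 61.5 and 44.9 in ZnSO4 + Dex. The 3 libraries with both agents were the lowest of all 12. The LFC of ZnSO4 + Dex against water + Dex was -1.37 (SE 0.29, adjusted p = 0.021, edgeR). Leaving out any of 5 of the 6 libraries compared, all but ZnSO4 + Dex replicate 2, took the adjusted p to between 0.0534 and 0.0842, with LFC between -1.43 and -1.25.

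Dex also lowered Cd274, with less margin. Against water + PBS the LFC of water + Dex was -0.96 (SE 0.27, adjusted p = 0.0464, edgeR), and one control library, at 161, lay below one Dex library, at 162. This call was lost when any one of 10 of the 12 libraries was left out. Without water + PBS replicate 2, the library with the most Cd274, the LFC was -0.57 (adjusted p = 0.161, edgeR). That library also had the highest sum of 8 B cell markers of the 12, 611 CPM, against 29.1 and 174 CPM in the other two of its group, and with a B cell score as covariate the LFC was -0.82 (adjusted p = 0.0815, edgeR). Among mice on ZnSO4, Dex gave an LFC of -1.005 (SE 0.29, adjusted p = 0.0388, edgeR) with groups that did not overlap, and -0.84 (adjusted p = 0.0874) with the B cell score. This call was lost under 7 of the 12 omissions, among them each of the 6 libraries compared, with LFC of -1.11 to -0.87 and adjusted p up to 0.122 by edgeR. The part of B cells in the Cd274 values beyond this covariate was not tested.

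With both agents against water + PBS, Cd274 fell from 271 ± 120 to 53.8 ± 8.38 normalised counts. The LFC was -2.33 (SE 0.29, adjusted p = 0.000181, edgeR). This call held under each of the 12 omissions, with LFC between -2.60 and -1.95, and under the other alternatives tried. The interaction, that is the difference between the ZnSO4 effect with and without Dex, was -0.05 on the log2 scale, with a 95% interval from -0.89 to 0.80 (adjusted p = 0.997, edgeR). The comparisons with water + PBS share those 3 control libraries. Of the exonic bases of Cd274, 14.1% overlap AC119228.1 on the opposite strand, and the strand setting of the counting is not given in the sources used here, so reads on that stretch could belong to either gene.

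**Figure D2:**
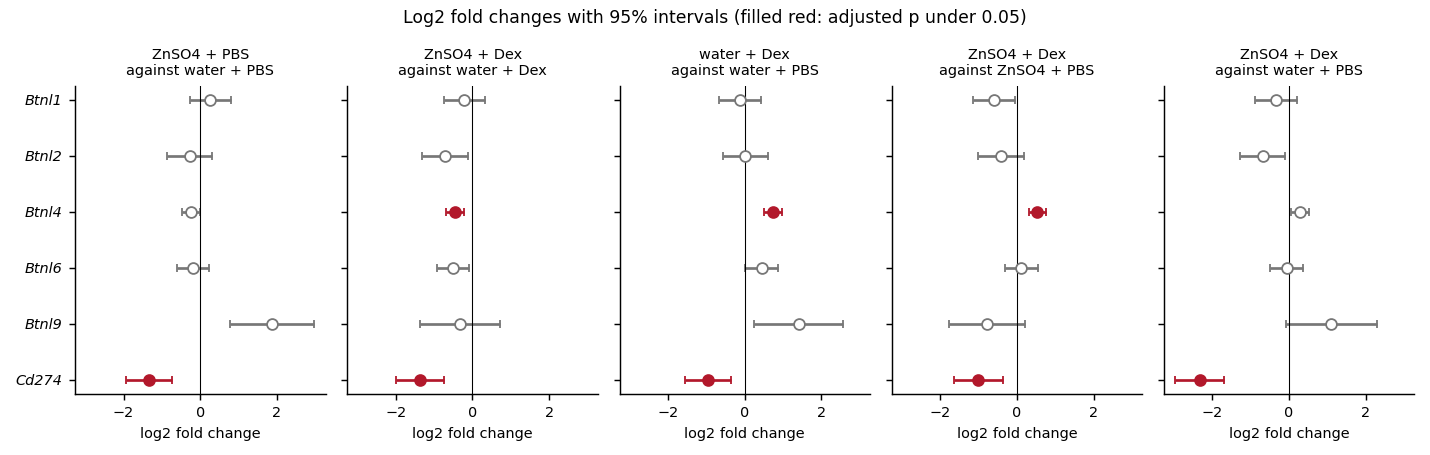
LFC (x axis, log2 scale) of each gene in the 5 comparisons of groups, with 95% intervals from the edgeR fit. Filled red points have an adjusted p under 0.05 over all tested genes. Cd274 lies left of 0 in every panel, from -2.33 to -0.96, and Btnl4 lies right of 0 in both Dex comparisons, at 0.75 and 0.53.

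Btnl4, a partner of Btnl1, was the only one of the 6 that rose after Dex by this test. It had 1124, 963 and 832 normalised counts in water + PBS and 1556, 1786 and 1560 in water + Dex. The lowest Dex library was above the highest control library. The mean rose from 973 ± 146 to 1634 ± 132, an LFC of 0.75 (SE 0.11, adjusted p = 0.000872, edgeR), and under the 12 omissions the LFC stayed between 0.65 and 0.86 with adjusted p up to 0.00728. In mice on ZnSO4, Btnl4 had 867, 804 and 791 normalised counts with PBS and 1236, 1101 and 1231 with Dex. These groups did not overlap either, and the LFC was 0.53 (SE 0.11, adjusted p = 0.00556, edgeR). The 12 enterocyte markers summed to 26150 to 28987 CPM in water + Dex and 20499 to 23207 CPM in water + PBS, which did not overlap either. An enterocyte score, the mean log2 CPM of the same 12 markers, was chosen as covariate after seeing the data. Unlike the sum, it gives each marker the same weight, those with few reads included. With this score the LFC of Btnl4 with Dex alone was 0.70 (adjusted p = 0.00261, edgeR), and the part of enterocytes beyond this covariate was not tested.

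ZnSO4 moved Btnl4 the other way. Within Dex-treated mice its level was lower with ZnSO4, 1189 ± 76.6 against 1634 ± 132 normalised counts, and the groups did not overlap (LFC -0.46, SE 0.11, adjusted p = 0.0311, edgeR). This call was lost without any one of the 6 libraries compared, with LFC between -0.49 and -0.38 and adjusted p between 0.0542 and 0.151. Without Dex the LFC of ZnSO4 was -0.25 (SE 0.11, adjusted p = 0.224, edgeR) and the groups overlapped. With both agents against neither, the LFC was 0.29 (SE 0.11, adjusted p = 0.0699, edgeR). The interaction was -0.21 with a 95% interval from -0.54 to 0.11.

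Btnl6, the partner of Btnl1 with the highest level, had 4104, 3920 and 4396 normalised counts in water + PBS and 5200, 5793 and 5872 in water + Dex. These groups did not overlap. The LFC of 0.44 (SE 0.19, adjusted p = 0.199, edgeR) did not pass the test when all 12 libraries shared one estimate of the spread, and it passed when ZnSO4 + Dex replicate 2 was left out (LFC 0.44, adjusted p = 0.0294) or when only the 6 libraries compared were fitted (LFC 0.44, adjusted p = 0.0117). The summed enterocyte markers were higher in the same water + Dex libraries, and with the enterocyte score as covariate the LFC was 0.21 (adjusted p = 0.296, edgeR). With ZnSO4 + PBS, Btnl6 had 4336, 3472 and 3096 normalised counts, overlapping the water + PBS libraries. In ZnSO4 + Dex it had 4828, 2617 and 4410, a group whose replicate 2 was the lowest of the 12 and whose members all lay below water + Dex (LFC -0.51, SE 0.19, adjusted p = 0.174, edgeR). Without that replicate the LFC was -0.28. For Dex in mice on ZnSO4 the LFC of Btnl6 was 0.12 (adjusted p = 0.748, edgeR), or 0.35 without it, and for both agents against neither it was -0.07, or 0.16 without it.

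Btnl1, required for its partners to reach the cell surface, passed the test in no comparison. Its normalised counts were 2019, 1980 and 2223 in water + PBS and 1804, 2122 and 1758 in water + Dex, which overlapped. In ZnSO4 + PBS they were 2894, 2310 and 2263, all above the controls, with an LFC of 0.26 and a 95% interval from -0.28 to 0.81 (adjusted p = 0.607, edgeR). In ZnSO4 + Dex they were 1902, 877 and 2147. These lay below the 3 ZnSO4 + PBS libraries (LFC -0.60, SE 0.25, adjusted p = 0.147, edgeR), and without replicate 2 of ZnSO4 + Dex the LFC was -0.30. Against water + Dex the LFC was -0.21 (SE 0.25, adjusted p = 0.7, edgeR), which turned to 0.09 without that replicate. With both agents against neither, the LFC was -0.34, or -0.04 without it.

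Btnl2 also passed in no comparison. It had 737, 858 and 909 normalised counts in water + PBS and 740, 909 and 884 in water + Dex. The LFC of Dex was 0.02, with a 95% interval from -0.57 to 0.61 (adjusted p = 0.982, edgeR), and it changed sign with some omissions. In ZnSO4 + PBS it had 850, 650 and 570, and in ZnSO4 + Dex 600, 267 and 686. The latter group lay below both water groups, with an LFC of -0.71 against water + Dex (SE 0.27, adjusted p = 0.179) and -0.69 against water + PBS (SE 0.27, adjusted p = 0.0902, edgeR). Without replicate 2 of ZnSO4 + Dex these LFC were -0.39 and -0.38. For Dex in mice on ZnSO4 the LFC of Btnl2 was -0.42 (SE 0.27, adjusted p = 0.377, edgeR), with overlapping groups, and -0.10 without that replicate.

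Btnl9, which lies apart from the others, was counted with only 2 to 20 reads per library. It had 1.95, 3.01 and 6.65 normalised counts in water + PBS, 10.03, 5.40 and 16.2 in water + Dex, 18.9, 10.98 and 13.9 in ZnSO4 + PBS and 7.26, 11.5 and 6.41 in ZnSO4 + Dex. The ZnSO4 + PBS libraries lay above the controls (LFC 1.87, SE 0.50, adjusted p = 0.0583, edgeR). These 3 libraries, with 20, 12 and 15 reads, also carried Btnl9 past the low-count filter, since only 2 others reached 10 reads, so the higher value there is a description. The interaction of the agents was -2.19, with an unadjusted p of 0.00891 and an adjusted p of 0.952 by edgeR.

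Counted over the group, 1 of the 6 genes passed the test with ZnSO4 alone, where 4.66% of all tested genes passed, and 2 with Dex alone, where 9.93% passed. Of the 6, 2 passed for ZnSO4 under Dex (4.37% of all genes), 2 for Dex under ZnSO4 (13.7%) and 1 for both agents against neither (23.3%). No tested gene passed for the interaction with edgeR (0%), 794 had an unadjusted p under 0.05, and DESeq2 called 6. The median LFC of the 6 members was -0.22 with ZnSO4 and 0.23 with Dex, beside -0.01 for all tested genes in each comparison. For ZnSO4 under Dex it was -0.48, beside 0.01 for all genes, and 3 of the estimates behind it, those of Btnl1, Btnl2 and Btnl6, moved to 0.09, -0.39 and -0.28 without replicate 2 of ZnSO4 + Dex.

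Because the neighbours on chromosome 17 are read from the same library, their ratio does not depend on library scaling. After Dex the ratios of the plus-strand genes Btnl1 and Btnl2 to the minus-strand genes Btnl4 and Btnl6 were lower, although Btnl4 alone of the 4 had passed the test for Dex. The ratio of Btnl1 to Btnl6 counts was 0.49 to 0.51 in water + PBS and 0.67 to 0.73 in ZnSO4 + PBS. After Dex it was 0.30 to 0.37 with water and 0.34 to 0.49 with ZnSO4. Within each drink, every Dex library lay below every PBS library. The log2 ratio fell by 0.68 with Dex (p = 0.005, adjusted p = 0.012, exact two-sided permutation test over 12 libraries within drinks, adjusted over 12 tests, the smallest p that 400 permutations can give). The log2 ratio fell by 1.06 for Btnl1 to Btnl4, by 0.89 for Btnl2 to Btnl4 and by 0.51 for Btnl2 to Btnl6, each with the same exact permutation p. Leaving out any one library left these 4 differences with unadjusted p of 0.005 to 0.01. Between genes on the same strand the shifts were 0.38 for Btnl4 to Btnl6 (adjusted p = 0.0257) and -0.17 for Btnl1 to Btnl2 (adjusted p = 0.0375, exact permutation), and both missed 0.05 under some omission (highest unadjusted p 0.06 and 0.075). Whether shifts between strands exceeded those within a strand was not tested.

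ZnSO4 shifted another ratio, that of the plus-strand neighbours Btnl1 and Btnl2. Btnl1 had 2.31 to 2.74 reads per Btnl2 read in water + PBS and 1.99 to 2.44 in water + Dex. With ZnSO4 it had 3.402 to 3.97 with PBS and 3.13 to 3.28 with Dex. All 6 ZnSO4 libraries lay above all 6 water libraries, replicate 2 of ZnSO4 + Dex included. The log2 ratio was higher by 0.53 with ZnSO4 (p = 0.005, adjusted p = 0.012, exact two-sided permutation test within injections), and by 0.48 to 0.56 under the 12 omissions. Btnl1 to Btnl6 was higher by 0.35 (adjusted p = 0.0257, exact permutation), with 0.28 to 0.42 under the omissions, and the other 4 ratios did not pass (adjusted p = 0.153 to 0.87). Among these, Btnl1 to Btnl4 was higher by 0.32, and by 0.50 without replicate 2 of ZnSO4 + Dex (unadjusted p = 0.005, exact permutation). Btnl2 to Btnl6 reached an unadjusted p of 0.035 without water + PBS replicate 1 and 0.025 without ZnSO4 + Dex replicate 3 (shifts of -0.21 and -0.25, exact permutation). The 6 pairs of genes, with both agents, make up the 12 tests, and they were chosen after the values had been seen.

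**Figure D3:**
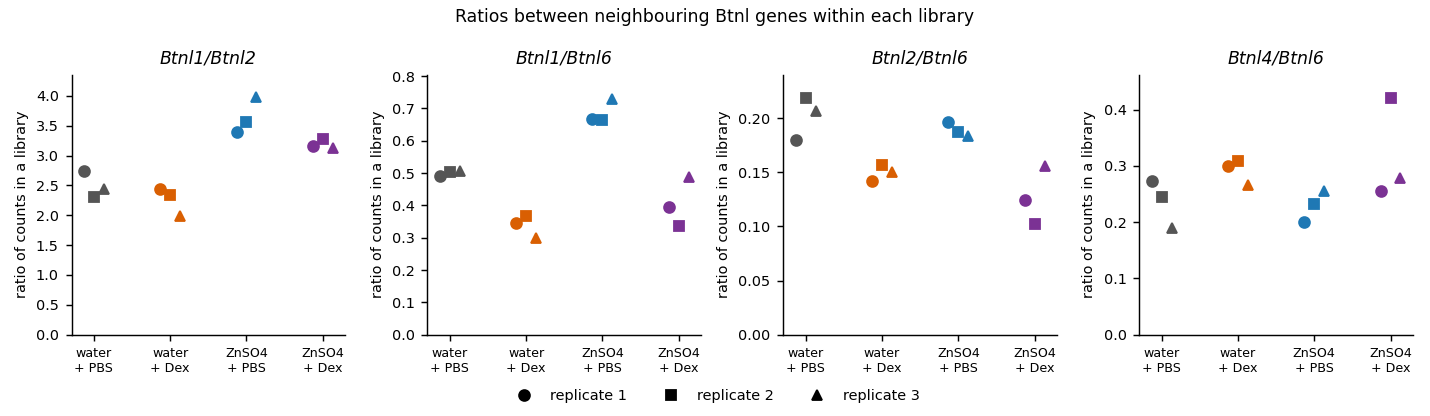
Ratio of the counts of paired genes within each library (y axis, starting at 0), by group, with symbols for the replicate number. Btnl1 to Btnl2 separates the ZnSO4 libraries (3.13 to 3.97) from the water libraries (1.99 to 2.74), and Btnl1 to Btnl6 and Btnl2 to Btnl6 are lower in Dex libraries than in PBS libraries of the same drink.

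Sequence shared between the neighbours bears on these counts, since reads with more than one position had been left out. No 31-base stretch of Btnl1 or Btnl2 transcripts occurred in another gene. Of the stretches of Btnl4, 28.0% occurred in another gene, and of those of Btnl6, 18.0%. Btnl4 and Btnl6 shared 151 of them with each other, and Btnl4 shared 387 with Btnl5-ps. Counts of Btnl4 and Btnl6 can therefore lack reads from these shared stretches. The length of the reads was not considered, so how many are lacking is not known.

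Replicate 2 of ZnSO4 + Dex, low in enterocyte markers, was the lowest of all 12 libraries for Btnl1, Btnl2 and Btnl6 but not for Btnl4. With the enterocyte score as covariate, Btnl1 and Btnl2 passed the test as lower after Dex in mice on ZnSO4 (LFC -0.62 and -0.42, adjusted p = 0.0137 and 0.0275, edgeR). That fit used all 12 libraries. Without replicate 2 of ZnSO4 + Dex and without the score, these LFC were -0.30 and -0.10. The Dex effect on Btnl4 in mice on ZnSO4 was 0.54 in the fit with the score (adjusted p = 0.0052, edgeR). The lower Btnl4 and Cd274 with ZnSO4 under Dex did not pass in it (LFC -0.38 and -1.47, adjusted p = 0.213 and 0.0901), nor did Cd274 after Dex alone (LFC -0.92, adjusted p = 0.0885, edgeR). For ZnSO4 under Dex, 318 of all tested genes passed with the score and 696 without it. The score can itself differ between the groups compared. Its 12 markers had a median LFC of -0.26 for ZnSO4 under Dex and 0.32 for Dex alone. Whether the lost calls reflect the content of enterocytes was not tested.

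**Figure D4:**
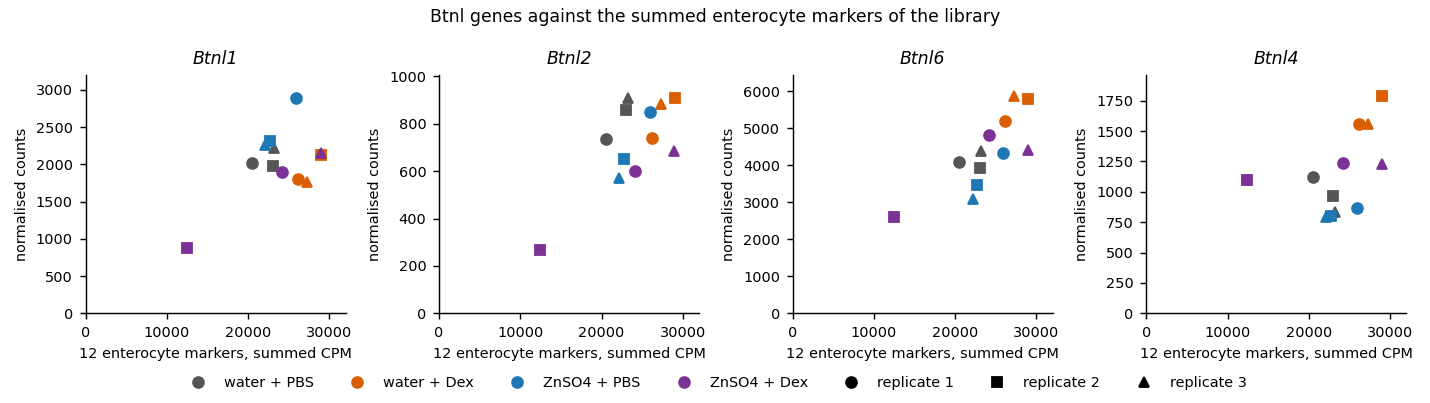
Normalised counts of Btnl1, Btnl2, Btnl6 and Btnl4 (y axes) against the summed CPM of 12 enterocyte markers (x axis) in the 12 libraries, coloured by group. The library at 12454 CPM, replicate 2 of ZnSO4 + Dex, is the lowest for the first 3 genes and has 1101 normalised counts of Btnl4.

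Among the enterocyte markers, the glucose transporter Slc5a1 rose with Dex (LFC 0.97, adjusted p = 0.0128) and with Dex under ZnSO4 (1.11, adjusted p = 0.00452, edgeR), and no other of the 12 passed in any comparison. Of 10 transcription factors of enterocytes, 3 rose and 3 fell with Dex, where 5.41% of all tested genes were higher and 4.51% lower. None of the 10 passed with ZnSO4. Hnf4g rose from 2818 ± 416 to 7383 ± 368 normalised counts (LFC 1.39, adjusted p = 0.000855, edgeR) and Gata6 had an LFC of 1.06 (adjusted p = 0.00599). Hnf4a, the other HNF4 factor, fell from 10976 ± 1379 to 7172 ± 422 (LFC -0.61, adjusted p = 0.00845) and Cdx2, a regulator of intestinal identity, had an LFC of -0.82 (adjusted p = 0.000117, edgeR). Under ZnSO4, Dex gave 3 higher and 4 lower of the 10, beside 6.65% and 7.08% of all tested genes. Both agents against neither gave 2 higher and 5 lower, beside 11.5% and 11.9%, whereas none passed for ZnSO4 under Dex.

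A list of 14 further genes held butyrophilin and B7 relatives and Cmtm4 and Cmtm6, whose proteins regulate PD-L1. Of these, 10 were tested. None passed with ZnSO4, where 4.66% of all tested genes passed, and 1 passed with Dex, where 9.93% passed. That gene was Icosl, which encodes the ligand of the T cell costimulator ICOS. It had 142, 334 and 224 normalised counts in water + PBS and 1851, 1525 and 1646 in water + Dex, and the LFC was 2.84 (SE 0.39, adjusted p = 0.000702, edgeR). With ZnSO4 it had 176, 325 and 125 after PBS and 1930, 986 and 2015 after Dex, an LFC of 2.97 (adjusted p = 0.000383, edgeR). Btnl5-ps, counted at 2956 ± 145 in water + PBS, was lower with ZnSO4 under Dex (LFC -0.44, adjusted p = 0.0445). Cmtm6, whose protein stabilises PD-L1 at the cell surface, was lower with Dex under ZnSO4 (LFC -0.30, adjusted p = 0.0353) and with both agents against neither (-0.44, adjusted p = 0.00319, edgeR). Vsir, an inhibitory relative, passed only in the latter comparison (LFC -0.58, adjusted p = 0.0268, edgeR). For both agents against neither, 1 of the 10 was higher and 2 lower, beside 11.5% and 11.9% of all tested genes. Dex under ZnSO4 gave 1 higher and 1 lower (6.65% and 7.08%), and ZnSO4 under Dex 1 lower (2.54%). Btn1a1, Btn2a2 and Btnl10 had 0 to 8 reads per library and were among the 4 not tested.

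Some genes of the path from interferon gamma to IRF1 passed the test as lower with each agent, and none passed as higher. Of 13 tested, 4 were lower with ZnSO4 and 4 with Dex, where 2.54% and 4.51% of all tested genes were lower. The median LFC of the 13 was -0.36 with ZnSO4 and 0.0046 with Dex. In the other comparisons the lower genes numbered 3 with ZnSO4 under Dex, 6 with Dex under ZnSO4 and 7 with both agents against neither. Of all tested genes, 2.54%, 7.08% and 11.9% were lower there, respectively. Irf1, the transcription factor at the end of that path, had 3183, 3462 and 2564 normalised counts in water + PBS, 1844, 1773 and 1657 in ZnSO4 + PBS, 1300, 1353 and 1422 in water + Dex and 843, 869 and 921 in ZnSO4 + Dex. The 4 groups did not overlap, and the LFC was -0.80 with ZnSO4 (adjusted p = 0.00148) and -1.18 with Dex (adjusted p = 2.24e-05, edgeR). Socs1 and Socs3, feedback inhibitors of cytokine signalling, also fell with each agent alone, by 1.41 and 1.56 with ZnSO4 and by 2.31 and 2.06 with Dex on the log2 scale (adjusted p = 0.0316, 0.0402, 0.00121 and 0.00534, edgeR). Nlrc5, an activator of MHC class I genes, fell with ZnSO4 (LFC -1.42, adjusted p = 0.00865) and had an LFC of 0.02 with Dex (adjusted p = 0.969, edgeR). Ifng itself had 0 to 6 reads per library and was not tested.

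Over the 12 libraries, among 11575 genes of sufficient level, genes with a pattern close to that of Cd274 were Rab8b and Aars (Pearson r = 0.97 and 0.96 of log2 CPM, 0.79 and 0.74 after removal of the group means). These are descriptions over libraries that share the groups' differences and their sequencing depth.

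**Figure D5:**
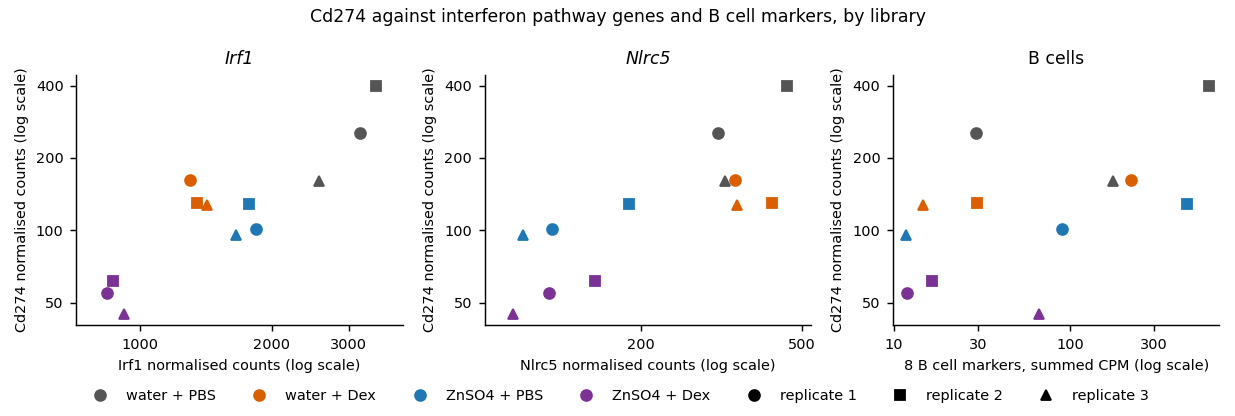
Normalised counts of Cd274 (y axis, log scale) against those of Irf1 and Nlrc5 and against the summed CPM of 8 B cell markers (x axes, log scale) in the 12 libraries, coloured by group. ZnSO4 + Dex is lowest on both axes of the Irf1 panel, and the Nlrc5 panel separates the water groups from the ZnSO4 groups. Replicate 2 of water + PBS is highest for Cd274 and for the B cell sum of 611 CPM.

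For the Btnl genes the likest genes were Fam8a1, Mpp1 and Erbin for Btnl1 (r = 0.98, 0.97 and 0.95), Gm8909, Aplp1 and Ehd1 for Btnl2 (0.99, 0.98 and 0.97), Rdh9 and Mcfd2 for Btnl6 (each 0.96) and Smad4, Prdx6 and Usp18 for Btnl4 (0.97, 0.96 and 0.96). For Btnl9, with its few reads, Gm20300, Elovl5 and Ghr reached 0.85, 0.84 and 0.83. Without replicate 2 of ZnSO4 + Dex, Fam8a1 and Btnl1 still had r = 0.97, whereas Erbin and Btnl1 had 0.79. Between members, Btnl1 and Btnl2 had r = 0.78 over 12 libraries and 0.02 without that library, and Btnl4 and Btnl6 had 0.69 and 0.88. After removal of the group means, with that library included, these pairs had r = 0.96 and 0.38. Btnl1 and Btnl6 had 0.39 over 12 libraries, -0.46 without that library and 0.92 after removal of the group means. Btnl2 and Btnl6 had 0.76, 0.57 and 0.95.

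Marker RNA of intraepithelial T lymphocytes, a list not confined to gamma delta cells, was lower with ZnSO4. The 13 markers of intraepithelial T lymphocytes summed to 225 to 322 CPM in water + PBS and 267 to 448 CPM in water + Dex, and to 104 to 111 CPM in ZnSO4 + PBS and 109 to 142 CPM in ZnSO4 + Dex. The ZnSO4 and water libraries did not overlap. Gzma and Gzmb, with means of 1275 and 564 normalised counts in water + PBS, weighed most in the sums of that group. Of the delta and gamma chain genes, Trdc had 58.0 to 87.3 normalised counts in water + PBS and 30.2 to 50.9 in ZnSO4 + PBS. Trgv7, with few reads, had 9.73 to 20.9 and 6.60 to 10.2 in these groups, which overlapped. Of the 13, 6 fell with ZnSO4, 7 with ZnSO4 under Dex and 9 with both agents against neither. Of all tested genes, 2.54%, 2.54% and 11.9% were lower in these comparisons, respectively. None of the 13 passed for Dex in either drink. The granzyme genes Gzmb and Gzma fell by 2.33 and 1.86 on the log2 scale with ZnSO4 (adjusted p = 0.00304 and 0.00479), and Cd8a and the gamma chain constant gene Tcrg-C1 by 1.14 and 0.88 (adjusted p = 0.0133 and 0.016, edgeR). The part of these cells in the values of Cd274, lower in the same libraries, was not tested.

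Markers of the remaining cell types were summed in the same way. The 8 B cell markers ranged from 11.6 to 611 CPM in sum and none passed in any comparison. The 9 markers of macrophages and dendritic cells summed to 218 to 328 CPM, and Cx3cr1 was lower with Dex under ZnSO4 (LFC -0.65, adjusted p = 0.0464) while C1qa and C1qb were higher (0.43 and 0.38, adjusted p = 0.0339 and 0.0468, edgeR). Of all tested genes, 7.08% were lower and 6.65% higher there. With both agents against neither, 1 of the 9 was lower, beside 11.9% of all tested genes. The 6 endothelial markers summed to 93.3 to 144 CPM, with Kdr and Cldn5 lower after Dex (LFC -0.96 and -1.22, adjusted p = 0.000372 and 0.0112, edgeR), where 4.51% of all tested genes were lower. Dex under ZnSO4 gave 2 lower of the 6 (7.08% of all tested genes). Both agents against neither gave 1 higher and 1 lower (11.5% and 11.9%). The 5 adipocyte markers ranged from 0.28 to 271 CPM with none passing. Of 6 smooth muscle markers (1280 to 2709 CPM), Myh11 alone passed, with both agents against neither (LFC 0.70, adjusted p = 0.0445, edgeR). In that comparison 11.5% of all tested genes were higher. The sum of smooth muscle markers was 2667 CPM in replicate 2 of ZnSO4 + Dex and 2709 CPM in replicate 3 of ZnSO4 + PBS. The remaining libraries had 1280 to 2113 CPM.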

How the data were processed

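Total RNA of washed mouse ileum was sequenced from 12 libraries, 3 biological replicates in each of 4 groups, per the labels. Per the submitters' processing notes and the study's methods, the authors trimmed single-end reads of stranded libraries (Trimmomatic), mapped them to mm10 (HISAT2 2.0.4, SAMtools) and counted them per gene with featureCounts, leaving out reads with several positions. The annotation release and strand setting are not given in the sources used here. The deposited table holds unnormalised read counts for 54838 Ensembl genes.

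Counts were filtered with filterByExpr (minimum count 10), which left 15938 genes with 99.83% of reads, normalised by TMM and fitted in 1 quasi-likelihood model of 4 group means (R 4.3.3, edgeR 4.0.16, limma 3.58.1), with Benjamini-Hochberg adjustment over all tested genes. A gene passed at an adjusted p under 0.05. Alternatives were DESeq2 1.42.0, other factors and filters, a replicate block, covariates, fewer groups, an LFC cut-off and omission of each library. The covariates were scores, the mean log2 CPM of the B cell markers or of the enterocyte markers. The members, lists and tests were chosen with earlier results of these data known. Named are all 6 members, up to 4 genes of each list and comparison with an adjusted p under 0.05, by lowest p, and the 3 genes most correlated with each member among those with a mean CPM of at least 5. Some genes that this rule selects are not reported here. Btn1a1, Btn2a2, Btnl10 and Ifng, which had too few reads, were named after their values were seen. Positions and exon lengths came from GENCODE (GRCm38, the assembly of mm10), upstream sequences from RefSeq, which held all 6 members. Ratios were tested by exact permutation. On simulated data for ZnSO4 against water (15534 genes), the procedure recovered 58.5% of 106 genes changed 2-fold and 88.3% of 94 changed 4-fold, with 4 unchanged genes called. No pair of libraries was as alike as repeated sequencing of one. The replicate numbers did not pair the mice (median correlation of deviations -0.06 for 18 pairs with the same number and 0.02 for 36 with different numbers).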

Additional observations from a re-analysis of the deposited data

How the results depend on the processing

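Over 775 refits of the 36 estimates (6 genes in 6 comparisons), 710 kept their direction and their side of the threshold, 41 no longer passed, 10 newly passed and 14 changed sign, none of them an estimate that had passed. Of the 6 genes, the number that passed with ZnSO4 alone was 1 and became 0 with only the groups compared, where Cd274 had an LFC of -1.31 (adjusted p = 0.0867, edgeR). For Dex alone it was 2, and with only the groups compared it stayed 2 because Btnl6 passed and Cd274 did not (LFC -0.96, adjusted p = 0.104, edgeR). It became 1 with the B cell score, the enterocyte score or the LFC cut-off of 0.8. For ZnSO4 under Dex it was 2 and became 1 with the cut-off and 0 with the enterocyte score. For Dex under ZnSO4 it was 2 and became 1 with the B cell score or the cut-off and 4 with the enterocyte score. For both agents against neither it was 1 and became 2 with DESeq2 (Btnl2, LFC -0.69), upper-quartile factors (Btnl4, 0.32) or the enterocyte score (Btnl2, -0.46). Omitting each library gave 0 to 2 for ZnSO4 alone, 1 to 2 for Dex alone, 0 to 2 for ZnSO4 under Dex, 1 to 2 for Dex under ZnSO4 and 1 to 2 for both agents. Calls over all tested genes moved as well. Under the omissions they were 283 to 1001 for ZnSO4 alone, beside 742 with all libraries. They were 936 to 1852 for Dex alone (beside 1582) and 322 to 696 for ZnSO4 under Dex (beside 696). Dex under ZnSO4 had 1496 to 2175 (beside 2189) and both agents 2669 to 3691 (beside 3719). With only the groups compared, 411 genes passed for ZnSO4 alone and 1599 for Dex alone. The cause of these shifts was not tested. The enterocyte score was chosen after seeing the data and turned the sign for Btnl2 after Dex (-0.33), Btnl1 with ZnSO4 under Dex (0.26) and Btnl6 with both agents (0.092), none of which passed.

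Omitting a library gave -0.067 to 0.10 for Btnl2 after Dex, -0.45 to 0.095 for Btnl1 and -0.62 to 0.14 for Btnl9 with ZnSO4 under Dex, -0.050 to 0.35 for Btnl6 with Dex under ZnSO4, -0.24 to 0.16 for Btnl6 with both agents, -0.43 to 0.22 for the Cd274 interaction and -0.078 to 0.10 for the ZnSO4 shift of the log2 ratio of Btnl4 to Btnl6. No pairing of the mice by replicate number was seen, so the replicate block was only an alternative. With it, 1, 2, 2, 2, 1 and 0 genes passed in the 6 comparisons, as without it, and Cd274 had an LFC of -1.27 with ZnSO4. DESeq2 gave no adjusted p for Btnl9 in some comparisons. With 3 mice a group, the widths of the intervals limit what could be seen, above all for Btnl9 with its 2 to 20 reads.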
